A study of Mus musculus with 10 samples.

Results

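In the hybrid mouse embryonic stem cell line TX1072, 178 autosomal genes had allele-assigned reads almost entirely from one parental chromosome. They were chosen by their measured B6 share, the share of allele-assigned TT-seq reads that came from the C57BL/6 (B6) rather than the Mus musculus castaneus (Cast) chromosome (a ratio that the study calls the d-score). A gene was a member when it had at least 10 allelic reads in each of the 10 samples and a B6 share, over reads summed across the samples, of 0.9 or more (113 B6-dominant genes) or 0.1 or less (65 Cast-dominant genes). Genes on chromosome 16, genes spanning 500000 bases or more and genes known as imprinted were left out. The members made up 1.62% of the 11012 autosomal genes that met the same minimum of reads, out of 22313 autosomal genes considered and 24386 genes in the tables. Because the share chose the members, its level is a description throughout, and tests were kept for its change with time and for total counts.

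TT-seq reads RNA made during a short pulse of 4-thiouridine (4sU), here 0.5 mM for 5 min, and so measures transcription rather than RNA stock. All samples came from the same female line, a CAST / C57BL/6 hybrid with genotype WT, grown with serum, LIF and the inhibitor pair called 2i. A doxycycline (DOX) inducible promoter drives the endogenous Xist gene on the B6 X chromosome in every sample, those at 0 h included. DOX at 1 µg/ml was present for 0, 4, 8, 12 or 24 h, with 2 replicates per time. There was no DOX control without the inducible promoter, and later samples had also been longer in culture, so that DOX, Xist RNA and culture time cannot be told apart in any change. The study speaks of biological duplicates where it plots silencing from these data, the labels say no more of how replicates were made, and p-values measure the spread between these samples.

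The 2 alleles of a gene in a hybrid cell share the same transcription factors, so unequal transcription of them is usually traced to sequence differences near the gene, such as in promoters and enhancers. Genomic imprinting, which silences one allele by parent of origin, and random monoallelic expression, in which a clone of cells keeps whichever allele was active in its founder, give the same picture in a single line. With 1 line and 1 direction of the cross, strain, parent of origin and clonal choice cannot be told apart here, beyond leaving out the genes known as imprinted. The share also depends on reads of both alleles aligning to the reference assembly, in which strain-differing positions were masked. Whether Cast reads were lost at that step in any member was not tested.

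Total counts ran from 18809046 to 22274929 per sample, and allelic reads made up 49.2% of them in 0 h replicate 1 and 51.7% to 52.8% in the others. Embryonic stem cell markers were well transcribed: 9 of 10 exceeded 1 count per 1000000 total counts (CPM) in every sample, and the tenth, Sox2, was listed at 0 in all of them. The summed level of that list was 2851 to 3156 CPM at 0 h and 2858 to 3132 CPM later. The primitive endoderm list had 1 of 6 genes over 1 CPM in every sample (summed 11.6 to 13.6 CPM at 0 h and 9.53 to 14.1 CPM later), the fibroblast or feeder list 1 of 7 (3.15 to 5.22 and 3.37 to 6.49 CPM), and the list for primed epiblast or mesoderm 2 of 5 (12.5 to 14.5 and 9.81 to 13.8 CPM). The gene over 1 CPM in the primitive endoderm list was Dab2, an endocytic adaptor, and in the fibroblast list it was Col1a2, a collagen chain. Both were Cast-dominant members, with pooled B6 shares of 0.0220 and 0.0146. The other endoderm genes had median levels of 1.29 CPM (Gata4), 0.989 CPM (Pdgfra), 0.510 CPM (Gata6), 0.202 CPM (Sox17) and 0 CPM (Foxa2). The other fibroblast genes had medians of 1.26 CPM (Thy1), 0.565 CPM (Col1a1), 0.363 CPM (Twist1) and 0 CPM (Col3a1, Dcn and Lum). Whether a few cells of these types contributed to the shares of Dab2 and Col1a2 was not tested.

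Most autosomal genes were transcribed from both chromosomes at similar rates. The pooled B6 share lay between 0.3 and 0.7 for 10006 of the 11012 measured genes (90.9%), with a median of 0.524. The numbers fell away towards both ends of the scale, and 181 genes lay between 0.8 and the B6 limit and 85 between the Cast limit and 0.2. At the B6 end the numbers rose again, with 36 of the 113 B6-dominant genes over 0.98 beside 15 between 0.96 and 0.98. The last step at the Cast end showed no such rise. There 12 of the 65 Cast-dominant genes had a share under 0.02, beside 17 between 0.02 and 0.04.

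**Figure D1:**
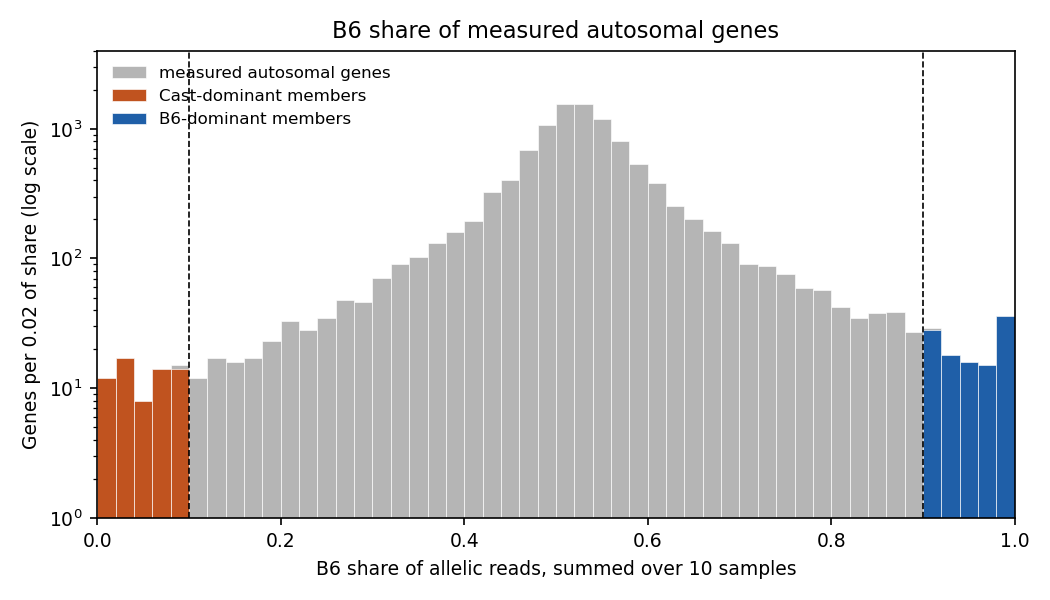
Number of measured autosomal genes (log scale) per step of 0.02 in the pooled B6 share, with B6-dominant members in blue, Cast-dominant members in orange and the limits of 0.9 and 0.1 as dashed lines. Of 11012 genes, 90.9% lie between 0.3 and 0.7, and the outermost step on the B6 side holds 36 members.

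The limits cut through a continuous range. Just inside the B6 limit lay P2rx4 (an ATP-gated ion channel, 0.9001), Kcnmb2 (a potassium channel subunit, 0.9001) and Prkcq (a protein kinase C, 0.901), and just outside it Gm13483 (0.8986), Ncoa7 (0.8985) and Sfrp4 (0.8985). On the Cast side, Gm13830 (0.0988), Apbb1ip (0.0954) and 1700028I16Rik (0.0935) were inside, while Syn2 (0.102), Slc47a2 (0.103) and Oas1a (0.105) were outside. Of 180 genes past the limits, 2 were left out as known imprinted: Ano1 (0.0906) and Qpct (0.908). A further 313 genes were past a limit on 10 or more reads in all but fell short of the minimum in at least 1 sample, and they are not members.

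The reference sequence at the start sites of some of the members with the most reads is shown first, since one allele of these promoters carried nearly all of the reads described next. The windows are from RefSeq (build GRCm38.p6, the patch release of the mm10 assembly used for the counts) and give the B6 reference only, 5′ to 3′ on the gene's strand, with each CpG dinucleotide in capitals. The first is the stretch between the divergent starts of the Cast-dominant pair Naa11 and 4930467D21Rik (chr5:97392331-97392416, plus strand), only 86 bases long. The others are the 250 bases upstream of the B6-dominant Lncenc1 (chr13:97434720-97434969, plus strand) and of the Cast-dominant Pdzrn4 (chr15:92396560-92396809, plus strand).
Naa11 to 4930467D21Rik: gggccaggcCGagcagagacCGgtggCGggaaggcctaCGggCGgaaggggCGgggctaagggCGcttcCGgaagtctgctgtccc
Lncenc1: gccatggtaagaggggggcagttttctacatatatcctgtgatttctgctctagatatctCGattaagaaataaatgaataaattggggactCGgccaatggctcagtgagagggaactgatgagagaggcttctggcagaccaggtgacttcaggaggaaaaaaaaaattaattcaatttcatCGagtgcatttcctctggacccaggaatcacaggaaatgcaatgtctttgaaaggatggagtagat
Pdzrn4: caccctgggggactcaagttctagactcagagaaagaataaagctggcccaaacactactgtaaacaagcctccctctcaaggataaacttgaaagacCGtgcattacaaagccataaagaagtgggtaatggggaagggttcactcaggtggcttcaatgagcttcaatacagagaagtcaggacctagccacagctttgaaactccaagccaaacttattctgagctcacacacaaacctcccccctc
The short stretch of the pair held 8 CpG and 73.3% G or C. The upstream bases of Lncenc1 held 3 CpG and those of Pdzrn4 held 1, against a median of 6 over the 32851 promoter windows in the table, of which 37.8% held 3 or fewer in the same length. With 50 further bases downstream of the start, both windows held 4 CpG, against a median of 22 over the windows matched to 8414 other measured genes, of which 6.98% held 5 or fewer. Windows of that length held 16 CpG for Naa11 and 18 for 4930467D21Rik. Other B6-dominant members with many reads held 50 (Grik3), 30 (Uggt2), 26 (Irak3), 19 (Paqr8), 18 (1700019D03Rik) and 3 (Lrrc31). On the Cast side the values were 34 (Tub), 26 (Khdrbs2), 12 (Mnd1), 7 (Pla2g4e), 5 (Sytl3, 14551 bases from the counted start) and 2 (E230016K23Rik). Members with many reads thus lay on both sides of the median. A window was matched for 135 of the 178 members (75.8%), under the 80% set for such a check. A comparison of CpG between the whole sets and other genes is therefore void and is not given. The values above describe only the windows named.

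The B6-dominant set was led by a noncoding RNA. Lncenc1, a long noncoding RNA of naive embryonic stem cells (chr13:97434970-97497664, plus strand), had 60843 B6 and 441 Cast reads. Its B6 share was 0.992 in both 0 h samples, 0.992 in both 4 h samples, 0.993 and 0.992 at 8 h, 0.994 in both 12 h samples, and 0.994 and 0.992 at 24 h. No sample stood apart, and the pooled share of 0.9928 had a 95% Wilson interval of 0.9921 to 0.9934. Per length of gene, Lncenc1 was at 6.20 CPM per kb the most transcribed member after the small RNA gene Mir703, with a total of 336 to 425 CPM. The gene on its left, Enc1, had a share of 0.591.

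Next by reads were Uggt2, a glycoprotein folding sensor of the endoplasmic reticulum, and Grik3, a kainate receptor subunit. Uggt2 ran from 0.977 to 0.990 (median 0.9803, 17821 reads) and Grik3 from 0.914 to 0.936 (median 0.926, 16094 reads), both past the limit in all 10 samples. Lrrc31, a leucine-rich repeat protein, ran from 0.978 to 0.993. Irak3, an inhibitor of Toll-like receptor signalling, ran from 0.964 to 0.992. Psma8, a proteasome subunit of the germ line on chromosome 18, ran from 0.962 to 0.981. All of these kept every sample on the B6 side of the limit, as did 1700019D03Rik (0.928 to 0.959) and LOC105246506 (0.931 to 0.973). Eps8, an actin regulator, and Paqr8, a membrane progesterone receptor, lay nearer to the limit, with ranges of 0.895 to 0.929 and 0.892 to 0.922, and passed it in 9 and 7 samples. Only 20.5% of the Eps8 reads could be assigned to an allele, against a median of 67.7% over the members and 60.2% over the other measured genes.

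The Cast-dominant set was led by Pdzrn4, a PDZ and RING finger protein (chr15:92396810-92771819, plus strand), with 2567 B6 and 28823 Cast reads. Its shares were 0.0802 and 0.0803 before DOX, 0.0826 and 0.0763 after 4 h, 0.0798 and 0.0796 after 8 h, 0.0933 and 0.0698 after 12 h, and 0.0929 and 0.0836 after 24 h. The samples at 12 h lay at both extremes, so that the spread between replicates there was as wide as over the whole course. The left neighbour of Pdzrn4, the kinase gene Lrrk2, also leaned to Cast at 0.155 without being a member, and the right neighbour, Gxylt1, did not (0.525).

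Further members with many reads came from varied pathways. Dok5, an adaptor of receptor tyrosine kinases, ran from 0.00962 to 0.0623, and Khdrbs2, an RNA-binding splicing regulator, from 0.0192 to 0.0567. Sytl3, a Rab-binding vesicle protein, was the most one-sided of the 10 with the most reads, with 19 B6 reads among 2009 and shares from 0 to 0.0188. All 3 were past the limit in every sample. Pla2g4e, a phospholipase A2 (0.0790 to 0.117), and Tub, the gene of the tubby protein (0.0719 to 0.141), crossed the limit in some samples and passed it in 8 and 7 of 10. The pair Naa11 and 4930467D21Rik, and E230016K23Rik and Mnd1, also belonged to these 10 and are described below.

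For 10 members not a single read of the minor allele was assigned in any sample, a group chosen after its values were seen. On the B6 side these were Gc, the vitamin D binding protein, Clca3b, Ubd (a ubiquitin-like modifier), Mir703, the vomeronasal receptor Vmn2r84, Zp3r and Skint8. On the Cast side they were the chemokine Ccl9, Tspan10 and Lrrc52. The depth sets how firmly this can be said: 1354 reads of Gc put its share at 0.997 or more by the Wilson interval, whereas 152 reads of Skint8 allow a share as low as 0.975. For Ccl9, 558 reads allow a share up to 0.00684. These intervals cover counting error only, since reads without molecular identifiers are not independent molecules.

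Members were transcribed at a low level. The median total was 5.44 CPM and 0.157 CPM per kb of gene span, against 29.0 CPM and 1.36 CPM per kb for the 10834 other measured genes. The median number of allelic reads was 614 over the 10 samples, against 3157, so that member shares rest on fewer reads. The median span of 38.8 kb compared with 25.8 kb. Protein-coding genes were 98 of the 113 B6-dominant and 54 of the 65 Cast-dominant genes (85.4% of all members), against 94.6% of the others, and long intergenic noncoding RNAs were 6 and 6. By chromosome the members ranged from 0.654% of measured genes on chromosome 19 to 2.80% on chromosome 18.

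A few gene families recurred. Provisional gene models (Gm, Rik, accession and similar names) gave 18 B6-dominant and 11 Cast-dominant members out of 581 measured, 4.99% against 1.62% over all measured genes. On the B6 side these were 1700019D03Rik, 2410017I17Rik, 4930447C04Rik, 5330411J11Rik, A230070E04Rik, A630001G21Rik, A730082K24Rik, AI662270, C130046K22Rik, C630028M04Rik, D630039A03Rik, E330020D12Rik, Gm10451, Gm16223, Gm38509, Gm5622, Gm8909 and LOC105246506. On the Cast side they were 1700024B18Rik, 1700028I16Rik, 1700045H11Rik, 1700123O12Rik, 4930467D21Rik, 4933401D09Rik, 9330159F19Rik, A330049N07Rik, E230016K23Rik, F830045P16Rik and Gm13830. Detoxification families gave 3 of 35: Aox3, an aldehyde oxidase (0.944 to 0.988), the cytochrome P450 gene Cyp2b23 (0.924 to 0.981), and Cyp2c55 on the Cast side (pooled share 0.0571, on 210 reads). The direct left neighbour of Aox3 among measured genes, the related Aox1, had a share of 0.563. Small RNA genes gave 2 of 48, Mir680-3 and Mir703. Some small lists held 1 member each. These were H2-T3 among 4 measured histocompatibility (H2) genes and Vmn2r84 among 2 olfactory, vomeronasal and taste receptors. The others were Clec4a1 among 9 genes of natural killer cell and leukocyte receptor clusters, and Oas1d among 15 interferon-inducible and Trim5-related genes. None of the 310 measured zinc finger genes of the Zfp series was a member. Smaller lists without a member were serpins and kallikreins (14 measured), genes with a known C57BL/6J loss or copy change (6), and 2-cell and oocyte clusters (5). Nlrp and Naip genes (3) and protocadherin, immunoglobulin and T cell receptor clusters (1) had none either.

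Reads shared between similar genes could distort a share. A near copy elsewhere (at least 95% identity over 50% or more of a transcript) was found for 3 of 111 B6-dominant and 1 of 64 Cast-dominant genes with a transcript sequence, 2.70% and 1.56% against 2.08% of other genes. These were Clca3a2 with Clca3a1, Gm5622 with Gm10378, Mir703 with Eef1a1, and Mnd1 with Mnd1-ps, and their shares are uncertain for this reason.

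Members lay between genes with balanced alleles less often than other measured genes did. Both nearest measured neighbours had a share of 0.3 to 0.7 for 100 of the 178 members (56.2%), against 83.0% of the other measured genes. Neighbours leaned slightly to the side of the member: their median share was 0.563 around B6-dominant genes (quartiles 0.507 and 0.686) and 0.481 around Cast-dominant genes (0.402 and 0.537), beside 0.524 (0.485 and 0.568) around the others. Runs were defined as neighbouring members of the same set, so that a shared direction within a run is part of the definition. There were 9 runs of 2 or 3 members, 3 of them Cast-dominant and 6 B6-dominant.

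On chromosome 5, Naa11, an N-terminal acetyltransferase, and the noncoding 4930467D21Rik start back to back from the short stretch printed above. Naa11 ran from 0.0240 to 0.0787 (median 0.0666) and 4930467D21Rik from 0.0476 to 0.114 (median 0.0747), while the flanking Paqr3 had 0.426 and 1700007G11Rik 0.705. On chromosome 11, the chemokine Ccl9 (no B6 reads) and E230016K23Rik (0 to 0.0270) are likewise transcribed away from each other, between Taf15 (0.540) and Heatr6 (0.514). On chromosome 12, Dcdc2c, a doublecortin domain protein (0 to 0.0656), and Allc, the gene of an allantoicase (0 to 0.0909), lay between Sox11 (0.628) and Rps7 (0.512). The flanks of all 3 Cast-dominant runs thus lay at 0.426 or more.

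In 4 of the 6 B6-dominant runs, some or all genes were of one family or lay in one gene complex. How often neighbours are related among other measured genes was not counted. On chromosome 14 the neurofilament genes Nefl (pooled share 0.981) and Nefm (0.997) adjoined A230070E04Rik (0.998), whose span overlaps that of Nefm on the opposite strand, between Dock5 (0.656) and Slc25a37 (0.510). Within the major histocompatibility complex on chromosome 17, 2410017I17Rik (0.988), Gm8909 (0.985) and the class I gene H2-T3 (0.982) lay between A930015D03Rik (0.757) and Rpp21 (0.500). The chloride channel accessory genes Clca3a2 (0.997) and Clca3b (1) on chromosome 3 were flanked by Sh3glb1 (0.566) and Odf2l (0.452). The gene pair for nephrin, Nphs1 (0.983), and its relative Kirrel2 (0.966), divergent on chromosome 7, was flanked by Aplp1 (0.707) and Proser3 (0.496).
The other B6-dominant runs joined unrelated genes. On chromosome 15, Gtsf1, a factor of the piRNA pathway (0.940), Nckap1l, a haematopoietic actin regulator (0.998), and Pde1b, a phosphodiesterase (0.963), were followed by Ppp1r1a at 0.898, just short of the limit. On chromosome 18 the kinase gene Stk32a (0.902) adjoined Dpysl3, a neuronal microtubule regulator (0.947).

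**Figure D2:**
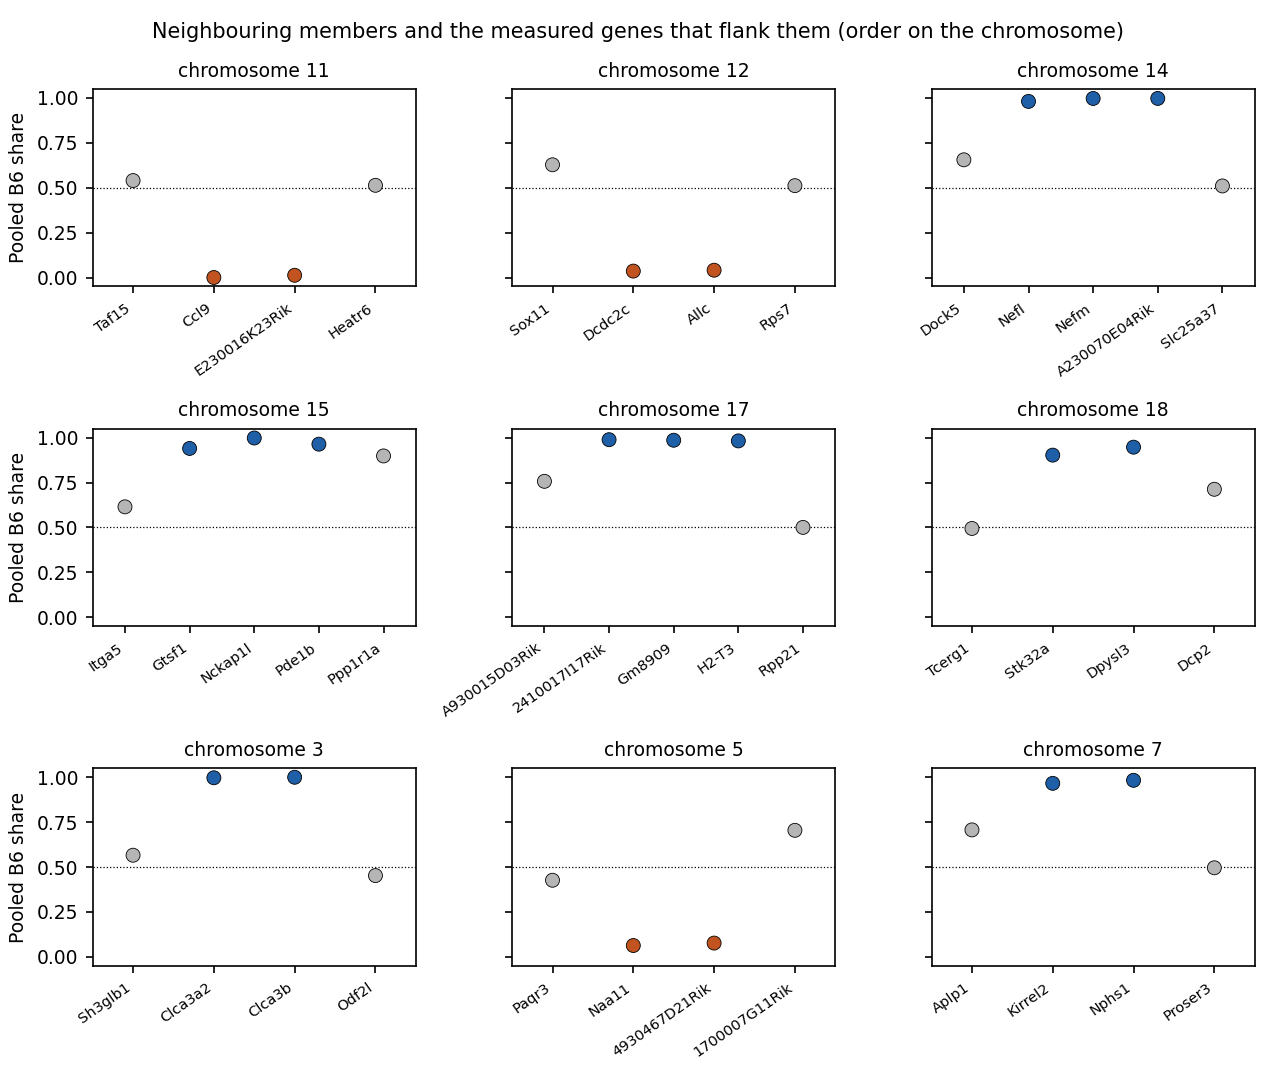
Pooled B6 share (vertical axis) of the 9 runs of neighbouring members in blue (B6-dominant) or orange (Cast-dominant), with the nearest measured gene on each side in grey, in chromosome order with spacing not to scale. Members lie at the edges of the scale and the flanks mostly near the dotted line at 0.5, with Ppp1r1a on chromosome 15 at 0.898 the closest exception.

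As a description, genes were chosen again by the same rule on some of the samples and measured in the others. The sets so chosen, such as 127 and 71 genes on replicate 1, are not the member sets. All samples share 1 line and 1 way of assigning reads, so a fixed error of assignment would recur in both parts. Genes chosen by the same rule on the replicate 1 samples alone were past the limit in replicate 2 in 99 of 123 B6-dominant cases (80.5%) and 59 of 65 Cast-dominant cases (90.8%), counting genes with at least 10 reads in each sample measured. The reverse choice gave 99 of 114 (86.8%) and 59 of 65. Genes chosen at 0 h were past the limit at 24 h in 105 of 135 (77.8%) and 56 of 69 (81.2%) cases. Those that dropped out mostly stayed lopsided: at 24 h, 132 of the 135 were at 0.8 or more and 67 of the 69 at 0.2 or less.

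Over the 24 h the median share of each set moved by less than 0.01. For the B6-dominant genes it was 0.962 ± 0.0084 at 0 h and 0.958 ± 0.0075 at 24 h (SD, n = 2), a difference of -0.0048 beside an SD of 0.0113 when samples are not paired. Taken within replicate numbers, which were not found to pair samples for the share, the B6-dominant median was lower at 24 h in both, by -0.0055 and -0.0041 (SD 0.00093). The Cast-dominant median was 0.0467 ± 0.0046 at 0 h and 0.0399 ± 0.0069 at 24 h, a difference of -0.0068 beside an SD of 0.00826, with -0.0149 and 0.0013 within replicate numbers. With 2 samples against 2 no exact test of a single value could pass the threshold, and none is given. In a single sample 96 to 105 of the 113 B6-dominant genes and 55 to 60 of the 65 Cast-dominant genes were past the limit, and 97 of the 178 were past it in all 10 samples. No member crossed 0.5 in any sample. The rule summed reads over all 10 samples, so a gene whose share changed strongly with time would tend to miss the limits. Small moves of the medians and the lack of such crossings are therefore partly set by the rule. The genes chosen at 0 h alone, given above, were not chosen on later shares.

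**Figure D3:**
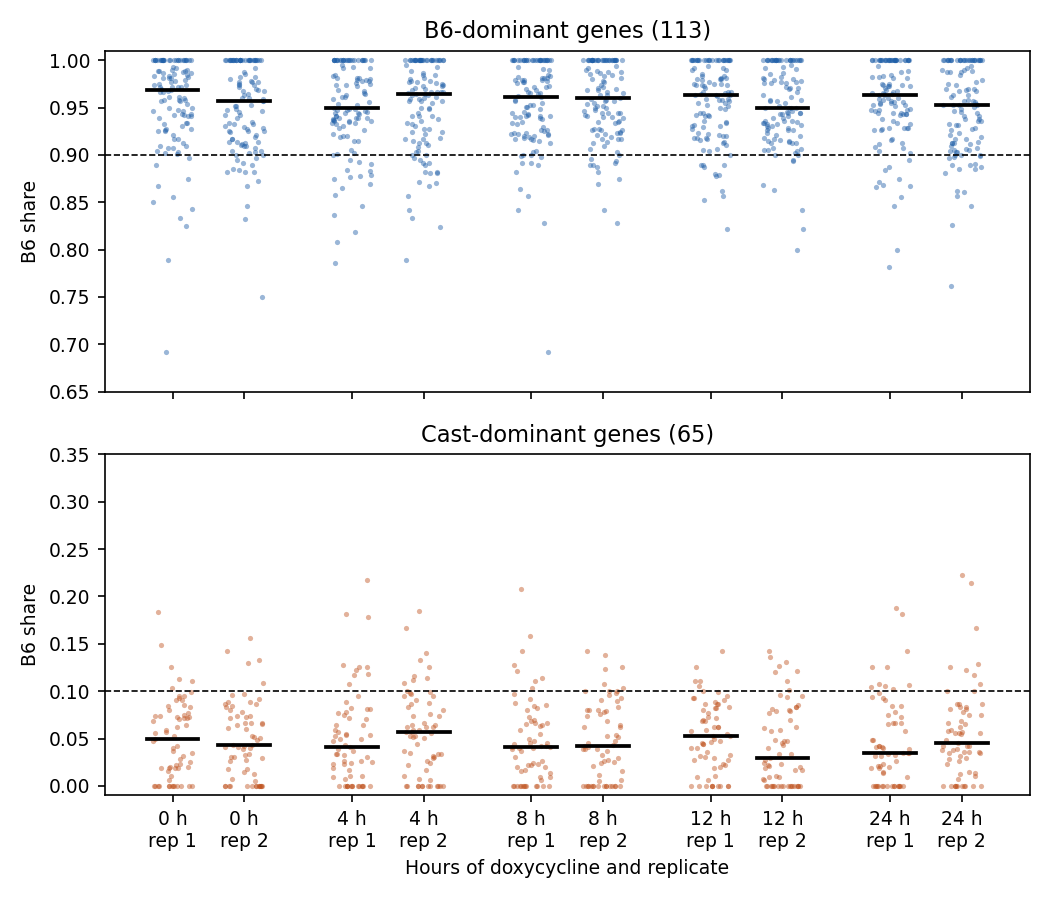
B6 share of each member (points, jittered sideways) in each of the 10 samples, ordered by hours of doxycycline and replicate, with the median of the sample as a black bar and the limit as a dashed line; the 2 panels show different parts of the scale. The medians stay between 0.95 and 0.968 for B6-dominant genes and between 0.0295 and 0.0571 for Cast-dominant genes.

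How far a member moved between samples went with its depth. The range from the lowest to the highest sample was 0.0666 for the median member, but 0.0438 for the median of the 66 members with 1000 or more allelic reads. The widest ranges, 0.308, belonged to Glrp1 (236 reads) and Slc14a2 (195 reads), both chosen for mention after their values were seen. P2rx4, which sat at the limit, moved most among the members with 1000 or more reads, from 0.832 to 0.970.

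**Figure D4:**
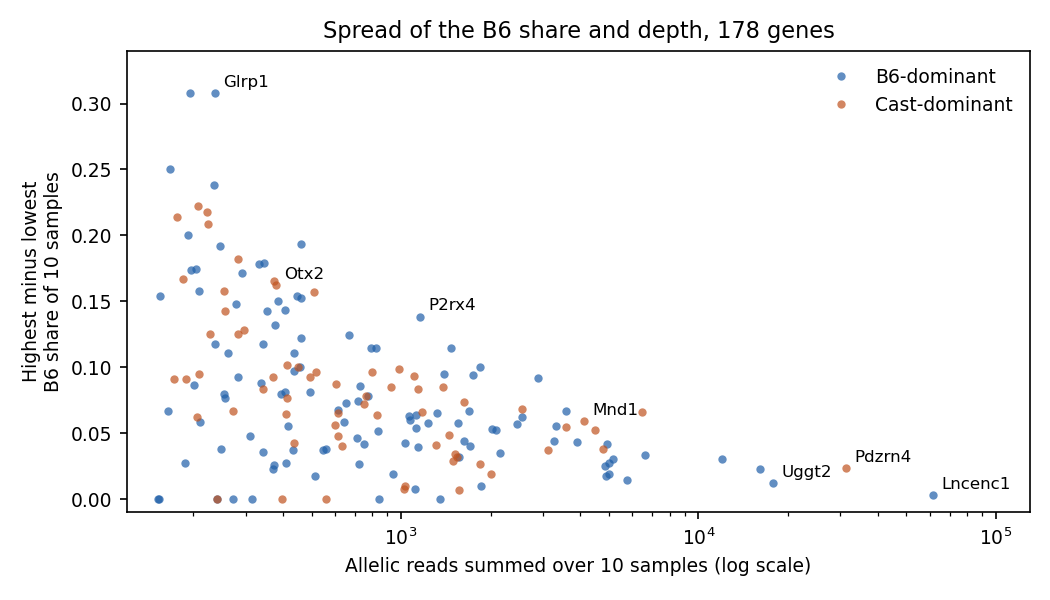
Highest minus lowest B6 share over the 10 samples (vertical axis) against allelic reads summed over the samples (log scale) for each of the 178 members, B6-dominant in blue and Cast-dominant in orange. Ranges reach 0.308 at 236 reads and are 0.0029 for Lncenc1 with 61284 reads.

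Change of the share with time was tested in each gene with an edgeR quasi-likelihood model of the allelic counts, fitted to all 11906 genes with enough reads. None of the 178 members changed its B6 share at any time at an adjusted p under 0.05, by edgeR or by DESeq2, and 10 had an unadjusted p under 0.05 (5.62%, against 4.88% of the other autosomal genes outside chromosome 16). By set these were 4 of 113 B6-dominant genes (3.54%) and 6 of 65 Cast-dominant genes (9.23%). For 24 h against 0 h the percentages were 1.77% and 9.23%, against 5.67% of those other genes. The 10 members without a minor-allele read could not have been called, which leaves 168. Of these the 10 with an unadjusted p under 0.05 at any time are 5.95%. Another 25 had no minor-allele read in both samples of 0 h or in both of 24 h. The standard error of the log2 change at 24 h was over 100 for the 10 and for 6 of these 25. Over all tested genes, X-linked genes included, 2.55% were called, and over autosomal genes outside chromosome 16 the figure was 0.305%. For 24 h against 0 h, 1 member was called (0.562% of members), where 2.64% of all tested genes and 0.332% of those autosomal genes were. Precision was lower for members, with a median standard error of the log2 change of 0.977 against 0.179 for the others, so that a moderate change in a typical member was not detectable at this depth. The rule also favours genes with a steady share, so the low number of calls among members does not measure stability on its own.

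The called member was Mnd1, a Cast-dominant gene whose product acts in the pairing of chromosomes in meiosis. Its shares were 0.0855 and 0.108 before DOX, 0.0706 and 0.0953 after 4 h, 0.0842 and 0.0803 after 8 h, 0.0718 and 0.0947 after 12 h, and 0.0489 and 0.0566 after 24 h. Both 24 h samples lay below all others, and the groups at 0 h and 24 h did not overlap. The B6 to Cast ratio fell by 0.95 on the log2 scale (SE 0.275, edgeR adjusted p = 0.0293), which rested on 33 and 53 B6 reads at 0 h and 20 and 27 at 24 h. Without 0 h replicate 2 the adjusted p was 0.568, without 24 h replicate 1 it was 0.311 and without 24 h replicate 2 it was 0.127. With DESeq2 it was 0.353, and with adjustment over autosomal genes outside chromosome 16 it was 0.331. The near copy Mnd1-ps, 97.2% identical, could also have taken or given reads; its part was not tested.

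Few members passed the adjusted threshold for total transcription when replicates were not paired. All 178 passed the filter on low counts among 14525 genes. In the edgeR fit without pairing of replicates 1 member was called at any time (0.562%, against 1.25% of all tested genes and 0.266% of autosomal genes outside chromosome 16) and 1 at 24 h (against 1.85% and 0.539%). At an unadjusted p under 0.05 there were 20 members at any time (11.2%, against 6.23% of other autosomal genes outside chromosome 16) and 23 at 24 h (12.9%, against 7.94%). The median log2 change at 24 h was 0.05 over the members and 0.01 over the others.

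Both calls were Otx2, a homeobox transcription factor of the epiblast and anterior neural tissue, which fell. The totals were 6.13 and 6.02 CPM before DOX, 5.32 and 5.91 CPM after 4 h, 4.44 and 4.93 CPM after 8 h, 3.38 and 3.80 CPM after 12 h, and 3.36 and 3.37 CPM after 24 h. All samples at 12 and 24 h lay below every earlier one. At 24 h the total had fallen by 0.84 on the log2 scale (SE 0.171, edgeR adjusted p = 0.0159), and over all times together the adjusted p was 0.0470. The 24 h call was lost without any one of the 0 h or 24 h samples, with adjusted p of 0.0754 and 0.0704 without 0 h replicate 1 and 2 and 0.130 and 0.131 without 24 h replicate 1 and 2. The any-time call was lost in each of the 10 fits that left out a sample, with adjusted p from 0.0584 to 0.193. With adjustment over autosomal genes outside chromosome 16 the adjusted p was 0.0857 at 24 h and 0.220 at any time. With DESeq2 it was 0.0483 and 0.0996. The call was kept by edgeR with the replicate number as a block, described below (adjusted p = 7.72e-04 at 24 h and 0.00109 at any time). It was also kept by edgeR without the filter on low counts (adjusted p = 0.00384 and 0.00608).

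The lower Otx2 level at 24 h was seen in reads of the Cast allele. Per 1000000 autosomal reads of the same allele, Cast reads were 11.4 and 10.2 at 0 h and 4.03 and 4.88 at 24 h, while B6 reads were 0.201 and 0.713 at 0 h and 0.795 and 0.867 at 24 h. The B6 share of Otx2 was accordingly 0.0192 and 0.0727 at 0 h and 0.182 and 0.167 at 24 h, past the limit in 8 of 10 samples. That rise in share did not pass the test (log2 change of the ratio 2.06, SE 0.838, edgeR adjusted p = 0.353), and the B6 side consisted of 1 and 4 reads at 0 h and 4 and 5 at 24 h. The measured neighbour Otx2os1, on the right, had a pooled share of 0.219.

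**Figure D5:**
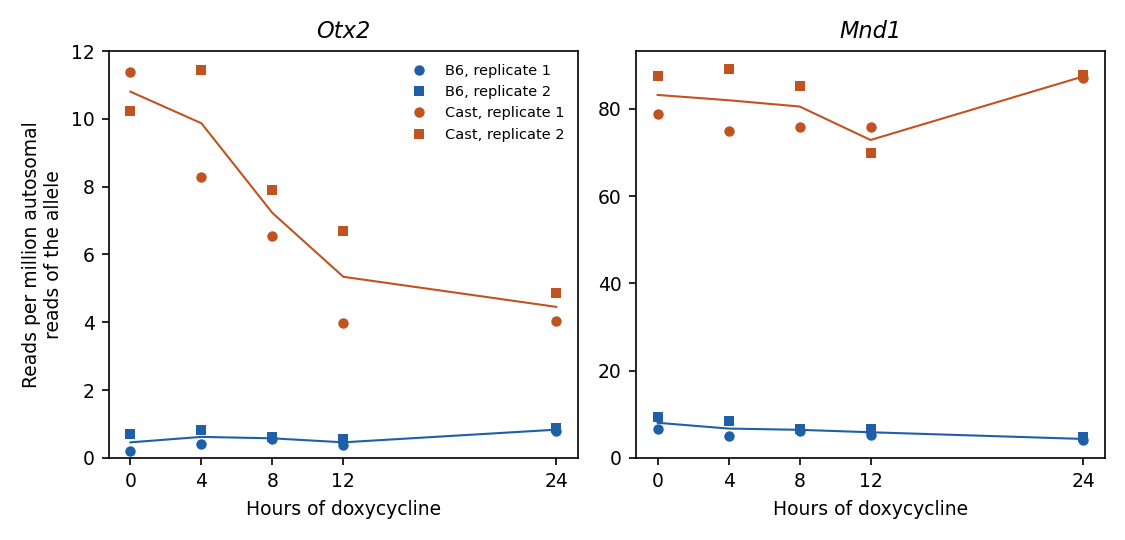
Reads of Otx2 and Mnd1 per 1000000 autosomal reads of the same allele (vertical axes, differing in scale) against hours of doxycycline, with B6 in blue, Cast in orange, circles and squares for replicates 1 and 2 and lines through the mean of each time. Cast reads of Otx2 go from 11.4 and 10.2 at 0 h to 4.03 and 4.88 at 24 h, whereas for Mnd1 the B6 reads are lowest at 24 h.

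Samples with the same replicate number deviated together in total counts, and a fit with the replicate number as a block called more members. With that pairing 18 members (10.1%) were called at any time, where 6.12% of all tested genes and 4.09% of autosomal genes outside chromosome 16 were, and 11 members (6.18%) at 24 h, where 5.32% and 3.28% were. Of the 11 called at 24 h, 5 rose and 6 fell, and 8 were among the 18. At any time 10 of the called members were B6-dominant and 8 Cast-dominant.

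In the blocked fit Lrrc31 rose by a log2 change of 0.44 at 24 h (SE 0.0803, edgeR adjusted p = 2.24e-04), from 36.3 and 29.9 CPM to 47.9 and 41.0 CPM. Vat1l, a relative of a synaptic vesicle protein on the Cast side, rose by 0.71 (SE 0.165, adjusted p = 0.00490 by edgeR), from 4.45 and 4.83 CPM to 6.26 and 8.75 CPM. P2ry2, a nucleotide receptor, rose by 0.60 (edgeR adjusted p = 0.00313) and Aox3 by 0.44 (edgeR adjusted p = 0.00350). Without the block none of these 4 genes passed the threshold in the edgeR fit of all samples with the filter on low counts. Without both the block and that filter, Lrrc31, Vat1l and P2ry2 passed it at 24 h. DESeq2 without the block called Vat1l at any time. Tiam2, an exchange factor for Rac, was the fifth that rose (0.45, edgeR adjusted p = 0.0128). Besides Otx2, those that fell at 24 h were Pitpnm3, Scn3a, Aldh1a2, Nckap1l and Irak3, by log2 changes between -0.60 and -0.32, among them the neuronal sodium channel gene Scn3a and Aldh1a2, which makes retinoic acid. The smallest adjusted p at any time belonged to LOC105246506 (1.12e-05 by edgeR with the block), which was lower at 4 and 8 h and higher at 12 and 24 h than at 0 h.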

How the data were processed

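TT-seq was carried out in 10 samples of TX1072 cells, 5 times of DOX with 2 replicates each, grouped by the sample labels. By the study's methods, the authors trimmed reads (Cutadapt 1.16), aligned them with STAR 2.3.0 to mm10 with strain-differing positions masked, assigned read pairs to alleles (SNPSplit 0.3.2) and counted them by strand over whole gene spans (featureCounts 1.5.1); the submitters' processing notes name TopHat2 2.1.0 among the tools. The deposited tables hold raw counts per gene (total, B6 and Cast). The authors also deposited a fraction, the B6 count over the sum of both alleles, which matched the counts and was recomputed here. Start positions in the tables were taken as 0-based and are given 1-based here.

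Members were found on the counts as given in the report. The members, the gene lists (imprinted genes and families, written by hand) and the tests were chosen with earlier results of these data known. Named genes are, per set, the 10 with the most allelic reads, the 3 nearest each side of the limit, those called in a test (at most 10 per test), members of families with 2 or more members, and runs of neighbouring members. CPM is the total count scaled to the library total. B6 shares were tested in edgeR 4.0.16 (R 4.3.3) by a quasi-likelihood model of B6 and Cast counts with an intercept for each sample, a term for allele and terms for allele by time, on genes with 10 or more allelic reads in every sample, and total counts by a quasi-likelihood model with time, TMM scaling and filterByExpr. Tests were two-sided, with Benjamini-Hochberg adjustment over all tested genes and a threshold of 0.05, and both scripts were tested on simulated data. Alternatives were RLE scaling, DESeq2 1.42.0, a replicate block, other filters, adjustment over autosomal genes outside chromosome 16, other limits of the rule and leaving out each sample.

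Whether replicate numbers pair samples was checked by correlating, across genes, the deviations from the time means of same-numbered samples. For log2 CPM every one of 10 pairs of times had r from 0.189 to 0.434, so blocked values are given where they change a count of calls. For the B6 to Cast ratio r was 0.0004 to 0.0324, so there the block is only an alternative. Intervals on shares are 95% Wilson intervals.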

Additional observations from a re-analysis of the deposited data

How the results depend on the processing

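The number of members followed the rule's settings. Limits of 0.95 and 0.05 gave 60 B6-dominant and 33 Cast-dominant genes, limits of 0.8 and 0.2 gave 294 and 149, a minimum of 50 allelic reads per sample gave 54 and 27, and a share past the limit in every sample gave 63 and 34. Leaving out each sample in turn changed neither number by 1.5 times or more, and 103 of 113 and 61 of 65 genes stayed members each time. The change of the Cast-dominant median from 0 h to 24 h was -0.0068 but 0.00196 on reads summed over the members, where Pdzrn4 gave 31390 of 99794 reads. The B6-dominant change also turned sign, from -0.0048 to 0.00456 over members with 50 or more reads per sample, 0.00089 on summed reads and 0.00077 without Lncenc1 (chosen after seeing the data), all within the unpaired SD of 0.0113. Within replicate numbers it was -0.0048 with an SD of 0.00093, larger than that SD.

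For changed B6 shares at any time, leaving out a sample gave 0 to 1 members (4930467D21Rik without 4 h replicate 1, Dok5 without 24 h replicate 2). At 24 h it gave 0 to 1, with 0 without 0 h replicate 2 and without 24 h replicate 1, and without 24 h replicate 2 the 1 called was Slco4c1 in place of Mnd1. DESeq2 and adjustment over autosomal genes outside chromosome 16 gave 0 at 24 h. With the replicate block Mnd1 was still the 1 member called at 24 h (log2 change -0.95, adjusted p = 0.0220 by edgeR), and none was called at any time; its numbers did not pair samples for the share.

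For total counts, the replicate block gave 18 members at any time and 11 at 24 h, no filter on low counts gave 5 and 4, and adjustment over autosomal genes gave 0 and 0. DESeq2 gave 2 at any time (LOC105246506 and Vat1l). Leaving out a sample gave 0 to 1 at any time, never Otx2, and 0 to 1 at 24 h. The cause of these differences was not tested. Depth limits the shares, since the median member had 614 allelic reads in all.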
